A study of Mus musculus with 11 samples.

Results

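Memory B cells (MBCs) and light zone (LZ) germinal center (GC) B cells taken from the spleens of Myc WT mice were compared gene by gene. The 3 MBC libraries and the 4 LZ libraries of this genotype were used, 7 of the 11 libraries of the series, and the members are the 10171 protein-coding genes that averaged 1 TPM or more across these 7 libraries, of 21772 protein-coding genes in the table. TPM is a read density per transcript length, scaled to the same total in each library, so levels can be set side by side between genes. A gene can enter through its level in one cell type alone. The mice were female, 8 to 12 weeks old, carried the unmutated Myc allele, and were taken 10 days after an intravenous dose of sheep red blood cells, which starts a T cell-dependent GC response. Both populations came from splenocytes depleted of CD43-bearing cells on beads and were then sorted, LZ cells as B220+ CD138neg IgDneg CD38neg Fas+ CD86high CXCR4low and MBCs as B220+ CD138neg IgDneg CD38+ CD273+. CD273 is PD-L2, the product of Pdcd1lg2. Mice 1, 3 and 4 gave both cell types and mouse 2 gave LZ cells only. Mouse 4 carries another breeding label than mice 1 to 3. The remaining 4 libraries, LZ B cells of Myc VD mice, did not enter the comparison.

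The GC is the site where activated B cells divide, mutate their immunoglobulin genes and are selected for antigen binding. In the LZ, B cells capture antigen from follicular dendritic cells and compete for T cell help, after which they return to the dark zone to divide, become plasma cells, or leave as MBCs. MBCs are long-lived and mostly resting, recirculate through blood and lymphoid tissue, and answer quickly when the antigen returns.

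The MBC libraries held more gaps than the LZ libraries. Between 9980 and 10089 members were above 0 in each LZ library, against 9338, 8823 and 10034 in the MBC libraries of mice 1, 3 and 4. Of the 6308 members averaging 10 TPM or more in the LZ libraries, 181 were listed at 0 in MBC library 1, 290 in MBC library 3 and 8 in MBC library 4, against 0 to 4 in the LZ libraries. The table gives no read depth. Across members, Pearson's r of log2(TPM + 1) was 0.942 to 0.98 between LZ libraries but 0.667 to 0.78 between MBC libraries, and MBC library 4 lay closer to the LZ libraries (0.827 to 0.845) than to either of the other MBC libraries. In bulk RNA of sorted cells, fewer cells of a type and less RNA per cell cannot be told apart.

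Of the 10171 members, 488 (4.80%) were higher in MBCs and 582 (5.72%) were lower at a limma adjusted p under 0.05, and in all of these genes the 3 MBC values and the 4 LZ values did not overlap. Groups did not overlap in 1410 members with MBCs on top (13.9%) and in 1563 with MBCs below (15.4%). The median difference over all members was -0.13 on the log2(TPM + 1) scale (MBC minus LZ), the scale of every difference given here. The genes lower in MBCs moved further, with a median of -2.46, than the genes higher in MBCs, with a median of 1.93. With the mouse as a replicate block, a fit on the 6 libraries of mice 1, 3 and 4, the calls fell to 109 higher (1.07%) and 110 lower (1.08%). Of 167 named genes past the threshold 86 were not called in that fit, among them, of the genes given further on without a p, Abca1, Btg1, Cd80, Cdkn3, Ciita, Csf1r, Ctps2, Cxcr3, Cycs, Gadd45b, Idi1, Igkc, Il2rg, Il9r, Lmnb1, Malt1, Msh6, Mxd3, Plk1, Polh, Rb1, S1pr2, Slc16a1, Sqle, Tmsb10, Tnfrsf13b and Vcam1. The counts leaned on single libraries: without LZ library 1, 2, 3 or 4 they were 210, 181, 212 and 224 higher and 146, 121, 117 and 237 lower, without MBC library 3 they were 766 and 679, and without MBC library 4 they were 793 and 1535. Where groups do not overlap each mouse must show the same sign, so all 488 and all 582 genes did by construction. Over all members 19.6% were higher in MBCs in each of the 3 mice and 21.1% were lower in each.

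Cd38 and Pdcd1lg2, genes of the MBC gate, were higher in MBCs. The sort itself favored this order, so their p values are no independent support for it. Genes used in the LZ gate alone were not called. Cd38, encoding an NAD-consuming surface enzyme that GC B cells lose, stood at 11.4, 13.3, 13.9 and 14.8 TPM in LZ B cells of mice 1 to 4 and 237, 276 and 199.7 TPM in MBCs of mice 1, 3 and 4. Pdcd1lg2, encoding the PD-1 ligand PD-L2, stood at 2.23, 3.38, 5.32 and 2.73 TPM in LZ B cells and 78.9, 36.3 and 28.6 TPM in MBCs. Every MBC library lay above every LZ library for both genes, with differences of 4.05 ± 0.26 (SE; limma adjusted p = 2.70e-04) and 3.38 ± 0.49 (limma adjusted p = 0.00563). Fas, Cxcr4 and Cd86, the genes used in the LZ gate alone, did not pass the test. Fas stood at 54.9 to 69.3 TPM in LZ B cells and 6.9 to 43.7 TPM in MBCs. Cd86 stood at 207 to 289.9 and 163 to 197 TPM, and Cxcr4 at 71.6 to 107 and 28.4 to 117 TPM. Ighd, whose product was gated out in both sorts, was higher in MBCs, at 31.9, 26.2, 19.6 and 20.7 TPM in LZ B cells and 156, 59.3 and 90.6 TPM in MBCs (difference 1.93 ± 0.38, limma adjusted p = 0.0177, and 0.059 with the mouse as a replicate block). The plasma cell marker Sdc1, encoding CD138, was under 1 TPM in every library except MBC library 4, where it stood at 5.4 TPM.

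Most genes of a list known for MBCs were higher. Of 28 listed genes 27 were tested, 19 were higher in MBCs, none was lower, and the median difference was 2.68, against -0.13 over all members. The list holds Cd38 and Pdcd1lg2, the genes of the MBC gate, so the sort itself set part of this count and median. With the mouse as a replicate block 14 genes of the list were higher. Ccr6, the receptor for the chemokine CCL20, stood at 4.81, 3, 4.64 and 5.83 TPM in LZ B cells and 196, 201 and 136 TPM in MBCs, and the lowest MBC value was above every LZ value (difference 5.01 ± 0.34, limma adjusted p = 3.12e-04). Cd55, encoding a regulator that protects the cell surface from complement, stood at 6.55, 12, 8.12 and 8.67 TPM in LZ B cells and 219, 127 and 191 TPM in MBCs (difference 4.19 ± 0.33, limma adjusted p = 6.36e-04). Cd80, a ligand of CD28 and CTLA-4 that marks a subset of MBCs, went from 0.41 to 0.78 TPM to 19.2, 26.8 and 4.47 TPM in the 3 MBC libraries, the least in mouse 4. Hhex, a homeodomain transcription factor with a role in MBC formation, was at 7.79 to 19.5 TPM in LZ B cells and 118 to 134 TPM in MBCs. Bach2, a repressor that holds B cells back from the plasma cell fate, was not called, at 152 to 206 TPM in LZ B cells and 125 to 142 TPM in MBCs, and neither was Nt5e, encoding CD73, at 10.8 to 13.4 and 6.8 to 11.5 TPM.

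**Figure D1:**
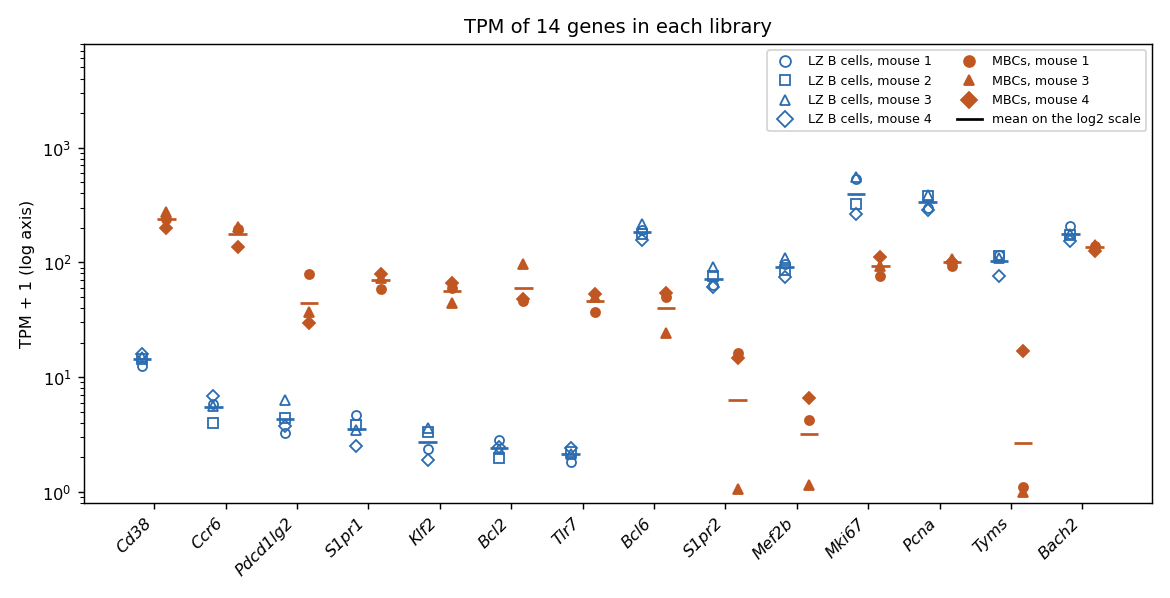
TPM + 1 on a log axis of 14 genes in each library, open blue symbols for LZ B cells of mice 1 to 4 and filled orange symbols for MBCs of mice 1, 3 and 4, with a bar at the mean of the log2 values. From Cd38 to Tlr7 every MBC symbol lies above every LZ symbol, from Bcl6 to Tyms every MBC symbol lies below, and for Bach2, which was not called, the groups lie close together.

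Part of the GC program was lower in MBCs. Of 25 listed GC genes 24 were tested, 11 were lower, none was higher, and the median difference was -1.56; 8 were lower with the mouse as a replicate block. Bcl6, the transcriptional repressor that the GC fate depends on, stood at 191, 177, 215 and 156 TPM in LZ B cells and 48.7, 23.2 and 53.4 TPM in MBCs (difference -2.20 ± 0.32, limma adjusted p = 0.00594). Its values in MBCs did not reach the lowest LZ value in any mouse. Mef2b, a transcription factor that acts upstream of Bcl6, had the largest difference of the list, from 73.2 to 108 TPM to 0.14 to 5.64 TPM (difference -4.84 ± 0.57, limma adjusted p = 0.00283). S1pr2, whose product keeps B cells inside the GC, stood at 60.5 to 89.7 TPM in LZ B cells and 15.2, 0.06 and 13.7 TPM in MBCs, so that MBC library 3 was near 0 and the other libraries lay below every LZ value. Gcsam, a GC-restricted adaptor gene, stood at 33.5 to 68.2 TPM in LZ B cells and 0.05 to 11 TPM in MBCs. Mybl1, a MYB family transcription factor gene abundant in GC B cells, was lower but remained at 300.1, 293 and 164 TPM in MBCs against 689.9 to 956 TPM. Rgs13, a brake on chemokine receptor signalling, did not pass the test (69.6 to 104 against 7.11 to 47.9 TPM, limma adjusted p = 0.0523).

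In the list of chemoattractant and lipid receptors, which guide B cells between compartments, 23 genes were tested, 8 were higher in MBCs (4 with the mouse as a replicate block) and 1, S1pr2, was lower (none with the block), with a median difference of 1.35. S1pr1, the receptor that lets lymphocytes exit into blood and lymph, stood at 3.72, 2.84, 2.44 and 1.52 TPM in LZ B cells and 58, 71.8 and 77.9 TPM in MBCs (difference 4.30 ± 0.39, limma adjusted p = 0.00128), the opposite order to its relative S1pr2. Gpr183, the oxysterol receptor EBI2 that draws B cells to the follicle's edge, stood at 12.1, 6.69, 6.3 and 7.81 TPM in LZ B cells and 67.5, 67 and 56.1 TPM in MBCs (difference 2.84 ± 0.35, limma adjusted p = 0.00311). Ccr7, which directs cells to the T cell zone, was at 0.31 to 1.37 TPM in LZ B cells and 18.8 to 33 TPM in MBCs, and Cxcr3, a receptor for interferon-induced chemokines, was at 0.27 to 1.12 and 5.6 to 7.01 TPM. All of these genes had non-overlapping groups. Cxcr5, the follicle-homing receptor, was not called at 72.5 to 87.5 TPM in LZ B cells and 90.9 to 211 TPM in MBCs (limma adjusted p = 0.0939).

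Of 34 adhesion genes tested, 13 were higher in MBCs, 21 were not called, none was lower, and 7 were higher with the mouse as a replicate block. Itgb7 and Itga4, the chains of the mucosal homing integrin α4β7, stood at 1.31 to 2.91 and 13.2 to 18.1 TPM in LZ B cells and at 36.4 to 44.1 and 75.9 to 186 TPM in MBCs. The groups were apart for both, with differences of 3.82 ± 0.41 and 2.91 ± 0.35. Cd44, a receptor for hyaluronan, was at 22.9 to 31.8 TPM in LZ B cells and 80.2 to 134 TPM in MBCs (difference 1.94 ± 0.28, limma adjusted p = 0.00617, and 0.0644 with the mouse as a replicate block). In the list of actin, annexin and S100 effector genes, 8 of 35 were higher and 2 were lower. Ahnak, a large scaffold gene, went from 0.27 to 0.62 TPM to 14.6 to 37.6 TPM, S100a11, a calcium-binding protein gene, from 32.9 to 56 to 284 to 303 TPM, and Vim, encoding the intermediate filament vimentin, from 40.6 to 91.1 to 390.5 to 417 TPM. The MBC values of S100a11 and Vim differed from each other by less than their distance to the LZ values. Lower in MBCs were Lmnb1, encoding lamin B1 of the nuclear envelope, at 42.7 to 96.6 against 11.5 to 30.6 TPM, and Tmsb10, encoding an actin-binding thymosin, at 554 to 720.4 against 275 to 463 TPM.

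A minority of quiescence factors were higher in MBCs. In the list of KLF and quiescence factors 8 of 25 were higher and none was lower, with a median difference of 1.29; with the trend of transcript length removed 5 were higher, and with the mouse as a replicate block 3. Klf2, which drives S1pr1 in lymphocytes, stood at 1.35, 2.3, 2.59 and 0.91 TPM in LZ B cells and 59, 43.3 and 65 TPM in MBCs (difference 4.37 ± 0.43, limma adjusted p = 0.00159). Klf3, a related repressor gene, stood at 1.34, 0.8, 1.4 and 0.83 TPM in LZ B cells and 75.8, 28.4 and 62.6 TPM in MBCs (difference 4.66 ± 0.48, limma adjusted p = 0.00181). For both genes the lowest MBC library was mouse 3 and still lay more than 10-fold above the LZ values. Rb1, the retinoblastoma protein gene that restrains cell cycle entry, was at 8.01 to 13 TPM in LZ B cells and 45.4 to 60.7 TPM in MBCs, and Cdkn1b, encoding the CDK inhibitor p27, was at 3.92 to 4.78 and 9.13 to 44.6 TPM (limma adjusted p = 0.0457, and 0.195 with the mouse as a replicate block). Btg1, an antiproliferative gene, was at 77.9 to 119 and 207 to 303 TPM. Among B lineage transcription factors 6 of 34 were higher and 2 were lower. Zeb2, a zinc finger repressor gene, was higher at 60.4 to 96.1 TPM against 6.42 to 12.6 TPM, while Ebf1 and Foxo1, regulators of B cell identity, were not called. Pax5, which maintains B cell identity, stood at 259, 210.1, 282 and 169 TPM in LZ B cells and 408, 1171 and 380.4 TPM in MBCs. Mouse 3 was far above the other MBC libraries for Pax5, and the gene was not called (limma adjusted p = 0.0703).

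Survival and death genes were mostly not called, as held for members at large. In the BCL2 family 1 of 19 tested genes was higher, a share near the 4.80% of all members, and none was lower. The median difference was -0.04, with a sign that turned under quantile normalization (0.03) and without MBC library 3 (0.07). The called gene was Bcl2 itself, an inhibitor of mitochondrial apoptosis, at 1.83, 0.99, 1.36 and 1.46 TPM in LZ B cells and 45.2, 95.4 and 47.4 TPM in MBCs (difference 4.65 ± 0.45, limma adjusted p = 0.00149, and 0.0138 with the mouse as a replicate block). The lowest MBC value of Bcl2 was more than 20-fold above the highest LZ value. Mcl1, Bcl2l1 and Bcl2l11, encoding the survival proteins MCL1 and BCL-XL and the death inducer BIM, were not called, at 161 to 199, 1.64 to 5.48 and 19.3 to 22.5 TPM in LZ B cells and 201 to 322, 0 to 9.26 and 21.6 to 54.1 TPM in MBCs. Among death receptors and caspases 2 of 21 were lower, beside 5.72% of all members. They were Birc5, encoding the mitotic protein survivin (118 to 209 against 1.91 to 54.2 TPM), and Cycs, encoding cytochrome c (36.4 to 55.7 against 8.88 to 16.6 TPM).

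The RNA sensor genes Tlr7 and Ddx58 and a minority of the interferon-stimulated genes were higher in MBCs. In the list of Toll-like receptors and adaptors 5 of 27 were higher, none was lower, and the median difference was 0.75. Tlr7, the endosomal receptor for single-stranded RNA, stood at 0.82, 1.23, 1.16 and 1.4 TPM in LZ B cells and 35.6, 49.4 and 52.5 TPM in MBCs (difference 4.43 ± 0.42, limma adjusted p = 0.00146). Ddx58, encoding the cytosolic RNA sensor RIG-I, stood at 5.17, 4.81, 3.78 and 2.35 TPM in LZ B cells and 61.2, 66.7 and 72.9 TPM in MBCs (difference 3.79 ± 0.38, limma adjusted p = 0.00159). The groups were far apart for both genes, and the 3 MBC values of each lay close together. Tlr9, the receptor for unmethylated DNA, was not called, at 48.6 to 59.9 TPM against 79.4 to 114 TPM (limma adjusted p = 0.0632), and neither were the RNA sensor genes Tlr3 and Ifih1. Of 44 interferon-stimulated genes 9 were higher and none was lower. Ifi203 and Mndal, PYHIN family genes of chromosome 1, stood at 14.3 to 20.2 and 31.7 to 39.9 TPM in LZ B cells and 368, 532 and 297 and 519, 367 and 508 TPM in MBCs. Their limma adjusted p values were 2.70e-04 and 2.70e-04, and 0.00171 for each with the mouse as a replicate block. Isg15, Ifit3 and Irf7, widely used readouts of interferon signalling, were not called, with at most 16.8 TPM in any of the 7 libraries. GIMAP GTPases, a lymphocyte family tied to survival, had 5 of 8 tested members higher and none lower, and the median difference was 1.53; guanylate-binding and immunity-related GTPases had 3 of 12 higher.

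Inhibitory receptors, signalling genes and antigen presentation genes showed small differences beside a few large ones. Among inhibitory receptors and phosphatases 5 of 23 were higher and none was lower, with a median difference of 0.28. Fcrl5, an Fc receptor-like inhibitor found on marginal zone and memory B cells, stood at 2.39, 2.04, 1.04 and 0.91 TPM in LZ B cells and 40, 99.6 and 39.5 TPM in MBCs (difference 4.45 ± 0.50, limma adjusted p = 0.00238). Ptpn22, a phosphatase that dampens antigen receptor signals, was at 1.47 to 2.64 TPM against 31 to 52.2 TPM, and Pirb, an inhibitory receptor for MHC class I, was at 3.17 to 5.6 against 32.5 to 143 TPM. Cd22, Cd72, Siglecg and Fcgr2b, other inhibitory coreceptors of B cells, were not called. In the proximal B cell receptor list 6 of 31 were higher and none was lower, and none was called with the mouse as a replicate block. Cd79a, a signalling chain of the receptor, was higher by 0.83 ± 0.22 (limma adjusted p = 0.0494, and 0.211 with the mouse as a replicate block), whereas Cd79b and Btk were not called. Malt1, a paracaspase between the receptor and NF-kB, was at 31.3 to 37.4 TPM against 74.7 to 131 TPM.

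Costimulatory and cytokine receptor genes were higher in a minority. In the costimulation list 4 of 21 were higher, among them Cd274, encoding PD-L1, at 3.79, 3.7, 2.25 and 3.44 TPM in LZ B cells and 58.4, 25.4 and 44.1 TPM in MBCs (difference 3.28 ± 0.44, limma adjusted p = 0.0043), and Tnfrsf13b, encoding the BAFF and APRIL receptor TACI, at 81.9 to 119.7 against 145 to 314 TPM. Cd40, Icosl and Il21r, through which T cell help reaches B cells, were not called. In the cytokine receptor and JAK-STAT list 9 of 34 were higher and none was lower; 5 were higher with the length trend removed and none was called with the mouse as a replicate block. Il2rg, the common γ chain, was at 132 to 174 TPM against 332 to 476 TPM, and Il9r, the IL-9 receptor, at 2.65 to 4.96 against 56.4, 10.6 and 44.1 TPM. In MHC class I presentation 5 of 25 were higher, including B2m, the invariant light chain, at 1301, 1112, 1485 and 899 TPM in LZ B cells and 3175, 3259.6 and 3118 TPM in MBCs (difference 1.43 ± 0.19, limma adjusted p = 0.00455). H2-Q6 and H2-Q7, nonclassical class I genes, were higher too, but near-identical copies share reads and their split is uncertain. In MHC class II presentation 2 of 21 were higher, Ciita, the master regulator, at 48.4 to 61 against 91.2 to 139 TPM, and Ctss, the protease that trims the invariant chain, at 133 to 203 against 426 to 474 TPM, while H2-Aa, H2-Ab1, H2-Eb1 and Cd74 were not called.

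Immunoglobulin constant region genes are not among the protein-coding members but were tested in the same fit. Their list of 13 genes also holds Jchain, a protein-coding gene for the joining chain, which was not called. In this list 6 genes, all of them constant region genes, were higher in MBCs and none was lower. Igha, encoding the IgA heavy chain, stood at 2.56, 7.59, 8.56 and 3.65 TPM in LZ B cells and 803, 516 and 465 TPM in MBCs (difference 6.57 ± 0.42, limma adjusted p = 2.70e-04, and 6.27e-04 with the mouse as a replicate block). No other constant region gene was apart to this degree. Ighm, the IgM heavy chain, stood at 1133, 1211, 1311 and 999 TPM in LZ B cells and 3575, 3591 and 5053 TPM in MBCs (difference 1.79 ± 0.18, limma adjusted p = 0.00181). Ighg2b was higher by 1.71 ± 0.22 and Igkc by 0.97 ± 0.20, whereas Ighg1, the most abundant IgG gene here, was not called (972 to 1637 against 1769 to 2029 TPM). Immunoglobulin genes of all kinds held 1.17 to 1.65% of TPM in LZ libraries and 2.79 to 3.78% in MBC libraries.

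**Figure D2:**
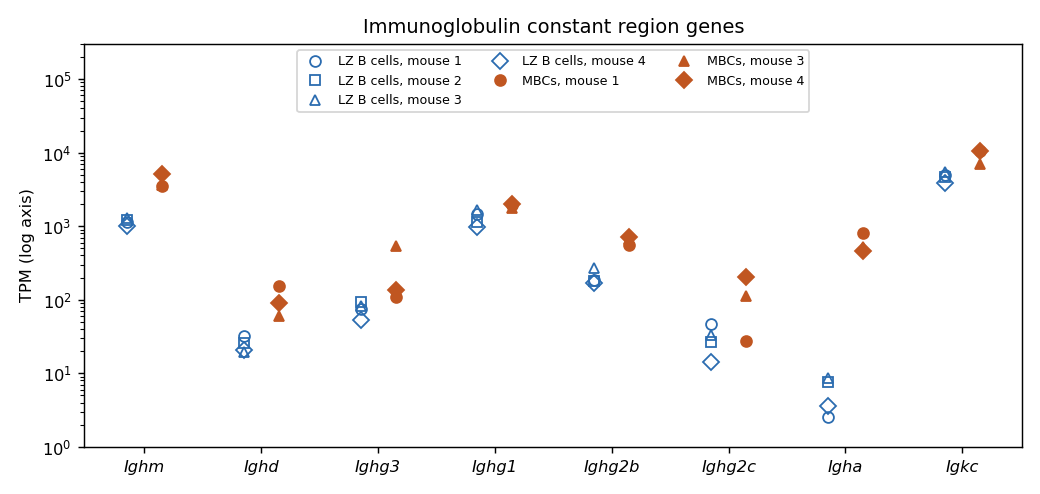
TPM on a log axis of 8 immunoglobulin constant region genes in each library, open blue symbols for LZ B cells of mice 1 to 4 and filled orange symbols for MBCs of mice 1, 3 and 4. The 3 Igha values of MBCs span 465 to 803 TPM and those of LZ B cells 2.56 to 8.56 TPM, while the values of Ighg1 lie close together.

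Genes of DNA replication and mitosis were lower in MBCs where they were called, with 1 exception among those of nucleotide synthesis. Before a cell copies its genome, the MCM helicase is loaded at origins with the help of CDC6, and E2F factors switch on these genes when the retinoblastoma proteins release them; later, genes of mitosis come on through the CHR promoter element. Of 27 MCM helicase and origin licensing genes 13 were lower and none was higher, with a median difference of -2.09. Of 36 DNA synthesis genes 17 were lower, of 37 nucleotide synthesis genes 11 were lower and 1 was higher, of 51 mitotic genes 33 were lower, and of 36 kinetochore and centromere genes 15 were lower. The medians of these 4 lists were -1.62, -1.15, -2.67 and -1.63. With the mouse as a replicate block the lower calls were 4, 5, 5, 8 and 2 for the 5 lists in this order. With the length trend removed they were 13, 18, 9, 33 and 18.

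Promoters of a licensing, an E2F family and a mitotic gene are shown because their lists held the searched motifs more often than members did. The DNA synthesis list did so too, with an E2F-like match in 22.6% of its windows, but none of its called genes met the rules below. The sequences are RefSeq promoter windows of GRCm38.p6, up to 250 bases before the RefSeq start site without any base inside the gene as GENCODE M21 annotates it, written 5′ to 3′ on the gene's strand, with the motif in capitals. Only the first RefSeq window of a gene was used, and other start sites were not searched. Genes with under 200 bases of the window outside the GENCODE gene were passed over, as were all genes of chromosomes 8 and 18. Each gene shown had the largest fall among the called genes of its list that these rules left and that held a match in this stretch. Mcm6, Rbl1 and Cdc20 are named for this reason after their values were seen.

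Mcm6 (chr1:128359706-128359955, minus strand, E2F-like matches from 110, 106 and 47 bases before the start): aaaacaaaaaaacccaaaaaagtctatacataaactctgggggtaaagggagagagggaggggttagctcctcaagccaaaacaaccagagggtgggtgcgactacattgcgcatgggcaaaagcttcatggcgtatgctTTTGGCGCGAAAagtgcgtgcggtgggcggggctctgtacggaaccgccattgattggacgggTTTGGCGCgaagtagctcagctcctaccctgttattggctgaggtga

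Rbl1 (chr2:157204535-157204784, minus strand, E2F-like match from 18 bases before the start): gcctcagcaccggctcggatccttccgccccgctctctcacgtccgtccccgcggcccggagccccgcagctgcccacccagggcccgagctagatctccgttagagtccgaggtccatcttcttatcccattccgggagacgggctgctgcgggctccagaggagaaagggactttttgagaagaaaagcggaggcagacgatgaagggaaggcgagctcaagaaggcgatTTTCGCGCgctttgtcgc

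Cdc20 (chr4:118437353-118437593, minus strand, TTTGAA or its complement in capitals, beginning 18 bases before the start): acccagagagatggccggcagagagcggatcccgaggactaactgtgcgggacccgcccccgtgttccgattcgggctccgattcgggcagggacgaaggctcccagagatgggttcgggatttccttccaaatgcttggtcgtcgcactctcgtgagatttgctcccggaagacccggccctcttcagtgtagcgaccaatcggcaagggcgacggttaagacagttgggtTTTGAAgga

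The E2F-like letters searched were TTTGGCGC, TTTCCCGC, TTTCGCGC and TTTGCCGC, the CHR letters were TTTGAA, and a CCAAT box was searched as CCAAT, all on both strands of 300 bases, 250 before to 50 after the start, 1 window a gene. An E2F-like match was found in 2.32% of all 27025 windows, in 4.47% of the 8073 members with a window, in 9.95% of 422 members lower in MBCs and in 1.84% of 381 members higher in MBCs. Among licensing genes it was found in 10 of 21 windows (47.6%). The CHR letters were in 12.4% of members with a window, in 20.1% of those lower and in 30 of 40 mitotic genes (75%), and 26 of these 40 held CCAAT as well (65%), against 5.4% of members. A match is a description of letters and shows no binding.

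Cdc6, the loading factor of the helicase, stood at 15.1, 17.6, 22.9 and 18.1 TPM in LZ B cells and 0.03, 0.16 and 0.89 TPM in MBCs (difference -3.87 ± 0.46, limma adjusted p = 0.00286, and 0.053 with the mouse as a replicate block). Mcm2, a helicase subunit gene, stood at 58.7, 51.4, 74.9 and 42 TPM in LZ B cells and 15.1, 9.43 and 19.4 TPM in MBCs (difference -1.91 ± 0.35, limma adjusted p = 0.0147, and 0.114 with the mouse as a replicate block). Cdc6 was below 1 TPM in each MBC library, whereas Mcm2 kept a measurable level in all 3. Mcm6, the helicase subunit gene of the shown promoter, was at 122 to 204 TPM against 10.6 to 64.9 TPM (limma adjusted p = 0.0295, and 0.0578 with the mouse as a replicate block). Cdt1, the partner of CDC6, was not called, with 11.2 to 20.8 TPM in LZ B cells and 5.01, 9.9 and 41 TPM in MBCs of mice 1, 3 and 4, the last above every LZ value. Pcna, the sliding clamp of DNA polymerases, stood at 296, 376, 387 and 285 TPM in LZ B cells and 91.7, 107 and 101 TPM in MBCs (difference -1.73 ± 0.21, limma adjusted p = 0.00285), with MBC values within a narrow range. Tyms, encoding thymidylate synthase, stood at 114, 113, 109 and 75.5 TPM in LZ B cells and 0.11, 0 and 16.1 TPM in MBCs (difference -5.26 ± 0.90, limma adjusted p = 0.011). Mouse 4 kept Tyms at a level the other MBC libraries lacked, and the same held for Dctpp1, which clears damaged deoxynucleotides, at 0, 0 and 2.01 TPM in MBCs against 39.6 to 68.7 TPM in LZ B cells. Rrm2, the regulated subunit of ribonucleotide reductase, was at 92.2 to 182 TPM against 4.21 to 31.2 TPM, and Tk1, thymidine kinase of S phase, just missed the threshold (77 to 131 against 40 to 62.5 TPM, limma adjusted p = 0.054). Ctps2, encoding a CTP synthase, was the single nucleotide synthesis gene that was higher in MBCs, at 59.4 to 153 TPM against 11.9 to 35.5 TPM.

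Mki67, encoding the proliferation antigen Ki-67, stood at 528, 322, 552 and 265 TPM in LZ B cells and 75.1, 92 and 109 TPM in MBCs (difference -2.11 ± 0.31, limma adjusted p = 0.00582). Top2a, the topoisomerase that untangles chromosomes, stood at 361, 309.6, 443 and 208 TPM in LZ B cells and 90.5, 56.1 and 101 TPM in MBCs (difference -1.98 ± 0.32, limma adjusted p = 0.00852). For both genes LZ library 4 was the lowest of the LZ libraries and still above every MBC library. Cdk1, the kinase of mitotic entry, stood at 87.5, 108, 128 and 71.8 TPM in LZ B cells and 4.49, 1.65 and 45.6 TPM in MBCs, so that mouse 4 differed less than mice 1 and 3 (difference -3.47 ± 0.84, limma adjusted p = 0.0358, and 0.0674 with the mouse as a replicate block). Stmn1, which destabilises microtubules, had the largest difference of the mitotic list, at 313 to 525 TPM against 34.3, 0.85 and 33.7 TPM (difference -4.94 ± 0.92, limma adjusted p = 0.0151). Plk1, a kinase of mitosis, was at 20.9 to 60.1 TPM against 0.39 to 6.37 TPM, and Cdc20, the activator of the anaphase-promoting complex whose promoter is shown above, was at 24.7 to 69.5 TPM against 2.02, 0 and 11.4 TPM (limma adjusted p = 0.0215, and 0.073 with the mouse as a replicate block). In the kinetochore list Nuf2, a subunit of the microtubule-binding NDC80 complex, was at 43.6 to 90 TPM against 0.26, 0 and 10.7 TPM. Ccna2, encoding cyclin A2, was not called, at 79.6 to 179 TPM in LZ B cells and 47.8, 1.83 and 49.6 TPM in MBCs.

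Among regulators of the cycle 1 of 28 cyclin and CDK genes was higher and 6 were lower. Ccnd2 and Ccnd3, both D-type cyclin genes, went opposite ways: Ccnd2 stood at 2.9, 4.58, 9.05 and 6.42 TPM in LZ B cells and 28.8, 27.8 and 23.9 TPM in MBCs (difference 2.13 ± 0.44, limma adjusted p = 0.0223), and Ccnd3, the D-type cyclin GC B cells depend on, stood at 159.9, 99.2, 136 and 78.9 TPM in LZ B cells and 66.5, 23.2 and 32.2 TPM in MBCs (difference -1.61 ± 0.40, limma adjusted p = 0.0416). Neither call held with the mouse as a replicate block (limma adjusted p = 0.171 and 0.0893). In the E2F and retinoblastoma list 1 of 18 was higher, Rb1, and 5 were lower, among them Rbl1, the Rb relative p107 that is itself an E2F target, at 30.2 to 43 TPM against 1.3 to 11.6 TPM (limma adjusted p = 0.0226, and 0.1 with the mouse as a replicate block). E2f8, a repressor of the E2F family, was at 49.7 to 86.3 TPM against 1.22, 1.93 and 5.96 TPM (difference -4.30 ± 0.46, limma adjusted p = 0.00207). E2f1 was not called (limma adjusted p = 0.0673). Of 5 tested CDK inhibitor genes Cdkn1b was higher and Cdkn3, a phosphatase gene of CDKs, was lower, at 11.1 to 29.6 TPM against 0, 0 and 1.66 TPM. Cdkn1a, encoding p21, was not called, at 9.23, 5.6, 9.39 and 4.72 TPM in LZ B cells and 0.63, 0 and 6.66 TPM in MBCs.

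Replication-dependent histone genes fell most as a family. Of 63 such genes, 59 were tested, 48 were lower in MBCs, none was higher, 37 were lower with the mouse as a replicate block, 41 with the length trend removed, and the median difference was -3.60. These genes supply chromatin during S phase, their transcripts are short, with a median of 534 bases against 3372 over members, and copies of near-identical sequence make the split of reads between them uncertain. Hist1h2bl, an H2B gene, stood at 1052, 557, 1061 and 634 TPM in LZ B cells and 17, 1.99 and 108 TPM in MBCs (difference -5.46 ± 0.98, limma adjusted p = 0.013). Hist1h2ai, an H2A gene, stood at 211, 122, 203 and 122 TPM in LZ B cells and was listed at 0 in all 3 MBC libraries. Of the 48 lower genes 29 were listed at 0 in some MBC library. Within the mice the list median was -3.49 in mouse 1, -4.11 in mouse 3 and -2.63 in mouse 4.

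Genes of antibody diversification and DNA repair were lower where they were called. In the somatic hypermutation and class switch list 5 of 26 were lower and none was higher. Polh, the error-prone polymerase η that mutates A and T bases, stood at 38.6 to 87 TPM in LZ B cells and 10.2, 0.55 and 15.5 TPM in MBCs, and Msh6, of mismatch repair, at 52.2 to 80.3 TPM and 15.8 to 27.6 TPM. Ung, which removes uracil from DNA, was not called (28.1 to 44.6 against 11 to 37 TPM). In homologous recombination 5 of 31 were lower and none was higher. In the checkpoint and p53 list 4 of 26 were lower, including Chek1, the replication checkpoint kinase, at 29.9 to 49.2 TPM against 3.15, 0 and 3.56 TPM, and Gadd45b, a stress-response gene, at 39.4 to 49.4 TPM against 12.3, 7.93 and 4.57 TPM.

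In the MYC, MAX and MXD network 1 of 10 tested genes was lower and none was higher, with a median difference of 0.57. Mga, a MAX partner gene named after its values were seen, had the most positive difference of the list (1.14 ± 0.38) and groups that did not overlap, at 52.4 to 63.6 TPM in LZ B cells and 82.8 to 251 TPM in MBCs, but was not called (limma adjusted p = 0.0922). Myc itself stood at 32.6, 35.5, 45.2 and 30.7 TPM in LZ B cells and 82.9, 43.2 and 69.7 TPM in MBCs, was not called (difference 0.81 ± 0.31, limma adjusted p = 0.139), and overlapped between the groups only in that the lowest MBC value lay below the highest LZ value. Zbtb17, encoding MIZ1, stood at 2.22 to 4.78 TPM in LZ B cells and 1.08 to 8.35 TPM in MBCs. Mxd3, a MAX partner made in dividing cells, was the lower gene, at 8.81 to 14.9 TPM against 0.61 to 0.98 TPM. Mxd4, a MAX partner of resting cells, was not called (28.1 to 36.3 against 54.1 to 71 TPM, limma adjusted p = 0.0682). Of gene lists that MYC is known to serve, 2 of 56 ribosome biogenesis genes and 7 of 82 cytosolic ribosomal protein genes were lower and none was higher, shares near the 5.72% of all members, and in the mTORC1 and amino acid transport list none of 29 was called at a limma adjusted p under 0.05. Npm1 and Ncl, major nucleolar protein genes, stood at 988 to 1793 and 322 to 562 TPM in LZ B cells and 956 to 1436 and 346 to 372 TPM in MBCs.

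Among metabolic and housekeeping families the called genes were nearly all lower in MBCs. They included 8 of 16 ATP synthase genes, 5 of 36 complex I genes, 11 of 78 mitochondrial ribosomal protein genes, 8 of 46 proteasome genes and 10 of 64 splicing factor genes, with 1 splicing factor gene higher. With the mouse as a replicate block these lower calls were 2, 0, 1, 1 and 3. The mRNAs encoded by the mitochondrial genome went the other way, holding 1.06 to 1.76% of TPM in LZ libraries and 3.37, 3.82 and 2.39% in MBC libraries 1, 3 and 4, and the part of this shift in the differences of mitochondrial genes was not tested. The median differences of the 5 families were -1.07, -1.38, -1.26, -1.01 and -0.64. Cholesterol and fatty acid synthesis had 7 of 36 genes lower and 2 higher: Sqle and Idi1, enzymes of the sterol pathway, stood at 34.8 to 44.5 and 30.6 to 59.9 TPM in LZ B cells and 0.24 to 6.99 and 0.46 to 8.92 TPM in MBCs, while Abca1, which exports cholesterol, stood at 3.86 to 5.98 TPM and 24.8 to 76.6 TPM. Fasn, the fatty acid synthase gene, was not called. Of glycolysis genes 2 of 27 were lower, a share near the 5.72% of all members: Gapdh, at 1983, 1425, 2208 and 1173 TPM in LZ B cells and 376, 576 and 747 TPM in MBCs (difference -1.59 ± 0.30, limma adjusted p = 0.015), and Slc16a1, a lactate transporter, at 6.37 to 13.4 against 0 to 3.87 TPM. Ldha, which makes lactate, overlapped between the groups.

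Transcript length moved with these differences. Sorted by the longest annotated transcript, the group of the shortest members (3390 genes, up to 2604 bases) had a median difference of -0.62 with 93 genes higher and 326 lower, the middle group had -0.13 with 152 and 160, and the group of the longest had 0.22 with 243 and 96. In the shortest group 524 genes were listed at 0 in MBC library 1, 738 in MBC library 3 and 92 in MBC library 4, against 50 to 104 in the LZ libraries. The complex I, ATP synthase, mitochondrial ribosomal protein and proteasome lists had median lengths of 1026, 1648, 1866 and 1895 bases. With the length trend removed from each library, 350 members were higher and 505 lower, and the lower calls in these 4 lists were 3, 6, 8 and 5. The list that changed most was that of chromatin modifiers, whose transcripts are long (median 6697 bases): 11 of 51 were higher and 4 lower, among the former Kmt2d, a histone methyltransferase gene, at 55.9 to 73.3 against 158 to 305 TPM, and 2 were higher and 4 lower with the length trend removed. The part of transcript length in each of these results was not tested further.

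**Figure D3:**
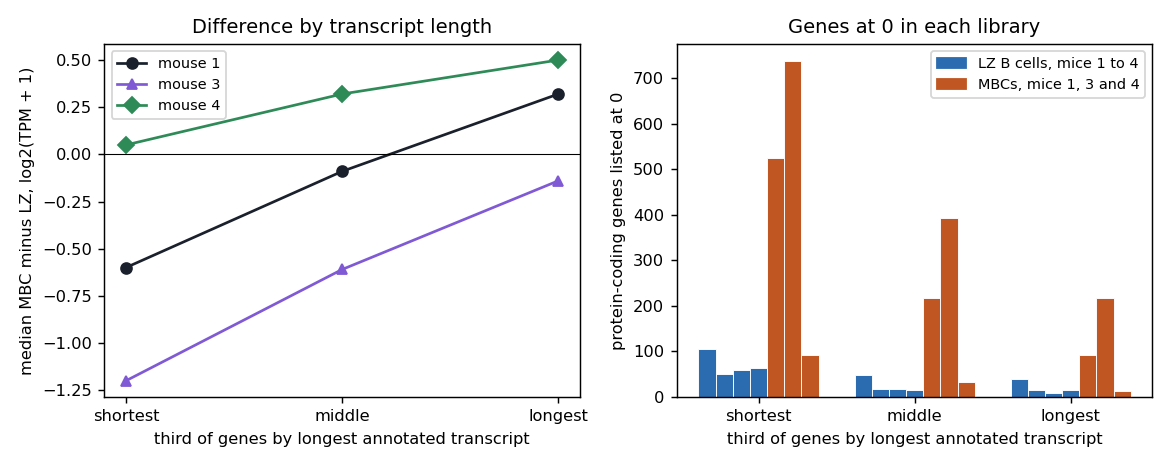
Left, median MBC minus LZ difference within mice 1, 3 and 4 on the log2(TPM + 1) scale for members split into 3 groups of like size by the longest annotated transcript; right, number of members listed at 0 in each library, blue for LZ B cells of mice 1 to 4 and orange for MBCs of mice 1, 3 and 4. The medians climb from the shortest to the longest group in all 3 mice, and the shortest group holds 738 genes at 0 in MBCs of mouse 3.

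Several of the largest differences lay outside the lists. By the fixed rule the 15 members furthest up included Rin3, Pml, Plac8, Tmem154, Ccr6, Kctd14, Carmil1, Scml4, Klf3, Bcl2, Fcrl5, Tlr7, Ifi203 and Arap2, and all 15 were called in each of the 7 fits that left out 1 library. Rin3, a guanine nucleotide exchange factor gene of endosomal RAB5, stood at 2.37, 0.91, 1.7 and 0.1 TPM in LZ B cells and 318, 194 and 73 TPM in MBCs (difference 6.31 ± 0.60, limma adjusted p = 0.00149). Pml, whose product builds nuclear bodies, stood at 0.51, 1.71, 1.84 and 1.42 TPM in LZ B cells and 145, 183 and 111 TPM in MBCs (difference 5.97 ± 0.41, limma adjusted p = 3.12e-04). Carmil1, a regulator of actin capping, stood at 2.87, 6.21, 2.3 and 2.05 TPM in LZ B cells and 236, 118 and 67.6 TPM in MBCs, with the lowest MBC value in mouse 4, as for Rin3 and Arap2. Kctd14 was listed at 0 in 3 LZ libraries and at 0.19 TPM in LZ library 3, and stood at 72.5, 23.3 and 17.5 TPM in MBCs. Of the 15 members furthest down 11 were histone genes. The others were Tyms, Dctpp1, Banf1, encoding a small DNA-bridging protein of the nuclear envelope, at 82.1 to 148 TPM in LZ B cells and 0, 0 and 43.7 TPM in MBCs, and Atp5mpl, encoding a small ATP synthase protein, at 88.3 to 175 TPM and 0, 0 and 37.3 TPM. Banf1 and Atp5mpl were at 0 in MBCs of mice 1 and 3 and were called in 1 and 2 of the 7 fits that left out 1 library.

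**Figure D4:**
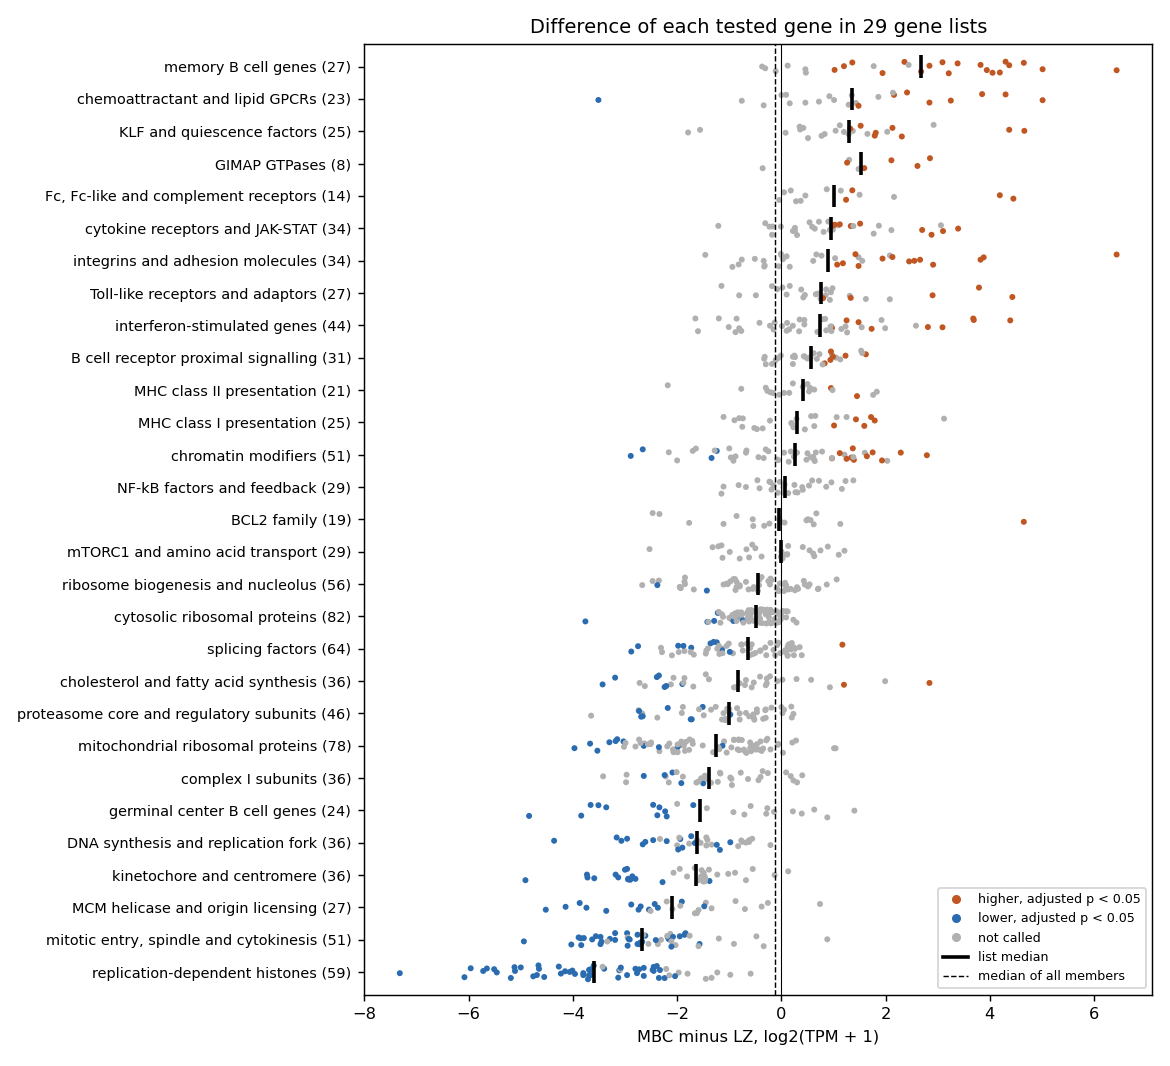
MBC minus LZ difference on the log2(TPM + 1) scale of each tested gene in 29 gene lists, orange where higher, blue where lower at a limma adjusted p under 0.05, gray where not called, with a bar at each list median and a dashed line at the median of all members (-0.13). The memory B cell list (median 2.68) stands at one end and the replication-dependent histones (median -3.60) at the other.

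The same contrast was read within the 3 mice that gave both cell types. The median over all members was -0.09 in mouse 1, -0.62 in mouse 3 and 0.31 in mouse 4. The memory B cell list had medians of 2.55, 2.48 and 2.70 in these mice, and the GC list -1.26, -1.20 and -1.25, with the 3 values of each close together. The mitotic list had -3.14, -3.57 and -1.05, and complex I -1.24, -2.22 and -0.21, with the smallest difference in mouse 4 for both. Mouse 4 also differed from mice 1 and 3 in its breeding label and in the number of genes above 0 in its MBC library, and these cannot be told apart. Of the 51 mitotic genes 47 were lower in MBCs in each of the 3 mice, and of the 27 tested memory B cell genes 21 were higher in each.

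**Figure D5:**
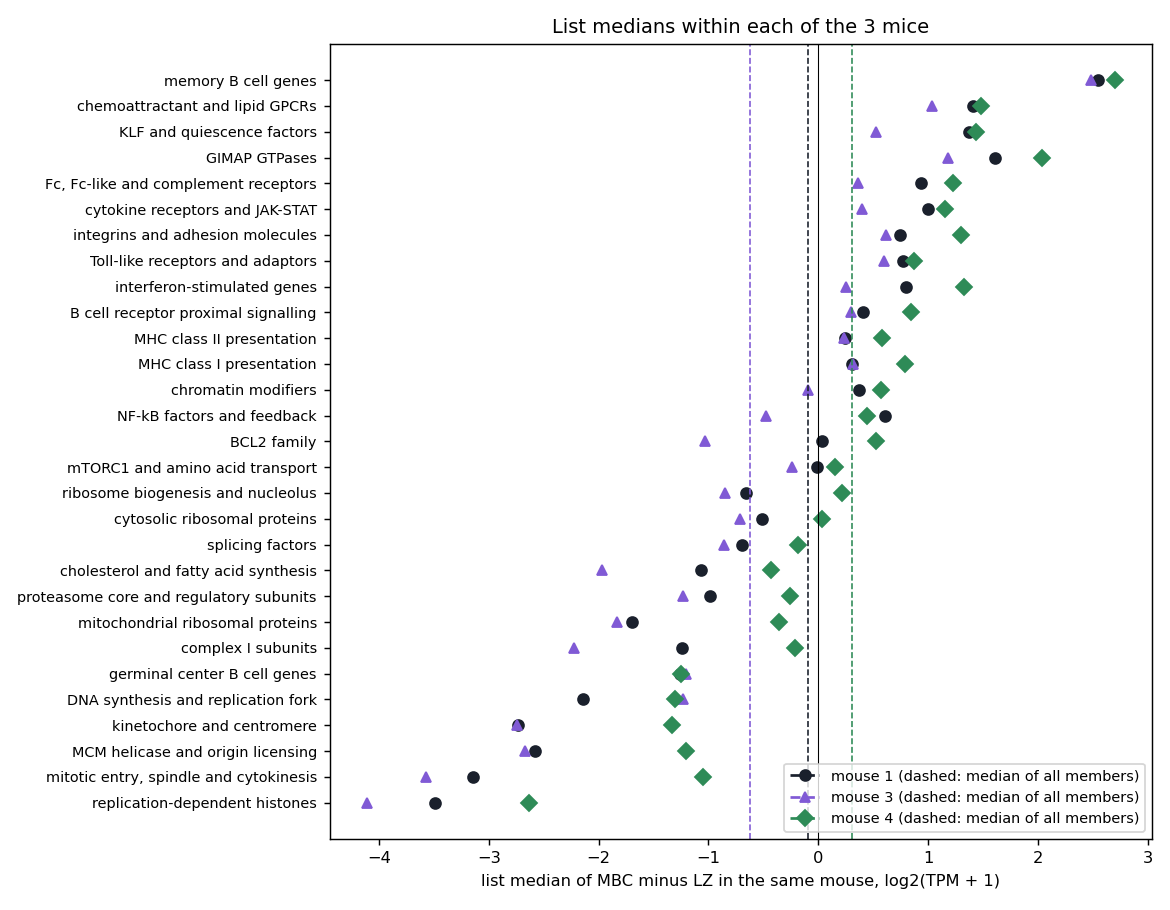
List medians of MBC minus LZ within mouse 1 (black circles), mouse 3 (purple triangles) and mouse 4 (green diamonds) on the log2(TPM + 1) scale, with dashed lines at the medians of all members in each mouse. The 3 symbols of the memory B cell and GC lists nearly coincide, while mouse 4 lies to the right of the others in the mitotic, MCM and complex I lists.

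Markers of other cells were read beside these results. The 10 memory markers summed to 54.8 to 57 TPM in LZ libraries and 896 to 1125 TPM in MBC libraries, with 9 higher, and the 10 GC markers to 1384 to 1651 TPM and 334 to 449 TPM, with 7 lower. The 6 light zone markers overlapped, at 480 to 792 TPM in LZ libraries and 407 to 595 TPM in MBC libraries, with none called. Of 6 dark zone markers 3 were lower and 1, Foxp1, was higher, and their sum was higher in every MBC library, at 643 to 972 TPM against 354 to 604 TPM. Of 4 naive follicular markers 3 were higher in MBCs (Fcer2a and Ighd among them), and the 4 summed to 364 to 368 TPM in LZ libraries and 936 to 1058 TPM in MBC libraries. Of 10 myeloid markers 2 were higher, and the 10 summed to 4.26 to 12.3 TPM in LZ libraries and 43.2 to 251 TPM in MBC libraries, the most in MBC library 4. S100a8 and S100a9 were at 0 in all 3 MBC libraries. Csf1r, the growth factor receptor of macrophages and a called gene of the cytokine receptor list, stood at 0 to 0.08 TPM in LZ B cells and 9.99, 5.89 and 16.4 TPM in MBCs, and Vcam1, a called adhesion gene that macrophages and stroma express, at 0 to 0.37 TPM and 15.9, 6.67 and 31.1 TPM. Of the stromal markers Col1a1 and Cxcl13 were at 0 in all 7 libraries. The 6 erythroid markers summed to 116 to 226 TPM in LZ libraries, to 7.6 TPM in MBC library 1 and to 6713 TPM in MBC library 3. The 8 T cell markers summed to at most 68.8 TPM in any library. The 6 plasma cell markers summed to 369 to 574 TPM in LZ libraries and 313 to 541 TPM in MBC libraries. The 6 marginal zone B markers summed to 185 to 210.2 TPM in LZ libraries and 211 to 435 TPM in MBC libraries, with none called. The 4 B-1 markers summed to 2.3 to 4.85 TPM and 8.01 to 38.9 TPM, with 1 of 2 tested higher. The part of naive, marginal zone, B-1, myeloid and erythroid RNA in the differences above was not tested.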

How the data were processed

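RNA of sorted cells had been amplified to cDNA with a Nugen kit and sequenced on an Illumina HiSeq. Per the labels and the methods, the authors aligned reads with STAR 2.5.2a, quantified genes with strand-specific RSEM 1.3.0 against Ensembl GRCm38, and deposited 1 table of TPM values. RSEM divides reads among near-identical copies. Depth per library is unknown, so no counting interval is given.

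Symbols, biotypes and transcript lengths came from GENCODE M21, in which 48435 of 48795 identifiers had a symbol. Genes of every kind averaging 1 TPM or more over the 7 libraries (13245) were tested on log2(TPM + 1) with limma 3.58.1 (R 4.3.3, trended variance, no block), with Benjamini-Hochberg adjustment over all of them and a threshold of 0.05. P-values refer to mice as replicates. The steps were tested on simulated data. An exact permutation test of 3 against 4 cannot go below 0.0286, so none is used.

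The titles give MBC and LZ libraries of mice 1, 3 and 4 the same mouse numbers, so these come from the same animals; deviations from the group means of each pair correlated at 0.0236, 0.00737 and -0.0388. A fit with the mouse as a replicate block was therefore the paired alternative. Named genes are fixed key genes of each list, up to 2 called genes in each direction per list, and the 15 called members furthest up and down. Some named genes are not reported here. Members and lists were chosen with earlier results of these data known. Alternatives covered pseudocount, filter, scaling, variance trend, libraries used, pairing and each library left out; removing the length trend and keeping only genes above 0 in all 7 libraries were added after seeing the data.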

Additional observations from a re-analysis of the deposited data

Results flagged for a closer look

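Of 286 groups of 4 LZ values tested, 14 held 1 library set apart from the other 3 by Dixon's criterion at the 95% level, and chance alone sets apart about 1 in 20 groups. In LZ library 4 the lowest value stood apart for Ccnb1 (30.5 TPM), Cenpa (71.99 TPM), Nuf2 (43.58 TPM) and Tyms (75.55 TPM), all genes of dividing cells, and for Cxcr4 (71.6 TPM), Gadd45b (39.4 TPM) and Irf8 (91.43 TPM). In LZ library 1 the highest value stood apart for Id2 (6.08 TPM), Il9r (4.96 TPM) and Nt5e (13.37 TPM), and the lowest for Tnfaip3 (7.2 TPM). LZ library 3 was highest for Anxa2 (76.88 TPM) and Anxa6 (12.48 TPM), and LZ library 2 for Cd72 (112.76 TPM). The groups of 3 MBC libraries were not tested in this way.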

How the results depend on the processing

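The counts of 488 higher and 582 lower members depended on pairing, filter and libraries. With the mouse as a replicate block they were 109 and 110, and with the length trend also removed 123 and 140. Without a filter on low values they were 299 and 245. The lower count alone moved by over 1.5 times to 919 with all 11 libraries in 1 fit, 883 under quantile normalization and 910 without both libraries of mouse 4. Leaving out 1 library gave 181 to 793 higher and 117 to 1535 lower. The block fit and every fit that left out a library used fewer libraries, yet both counts rose without MBC library 3 or 4; the causes of these changes were not tested. No named gene past the threshold changed direction under the alternatives run. The groups of these genes did not overlap, so leaving out libraries or pairing the mice could not have turned a sign. Depth limits what can be said of genes listed at 0 in MBC libraries 1 and 3.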
